A study of Mus musculus with 4 samples.

Results

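The microRNA genes of the Mir302 and Mir290 clusters were followed in P19 cells, which come from a mouse embryonal carcinoma, by the signals of their own probe sets on gene-level expression arrays. The members were chosen by gene symbol: Mir302a to Mir302d, Mir367, and Mir290 to Mir295 with any letter suffix, each named alone by a probe set in the platform annotation. This gave 6 genes (Mir302a, Mir302b, Mir302c, Mir302d, Mir367 and Mir290a) of 22180 genes with a probe set of their own, each with 1 probe set. They were chosen also because they fell with retinoic acid, so their retinoic acid differences are given as a description, with no test. Whether the Ctcfl line differed from wild type played no part in the choice, and that difference was tested.

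There were 4 arrays, 1 for each group. The Ctcfl line with retinoic acid was a P19 clone carrying pBI-EGFP-FLAG-mCtcfl and pTA-N, a Tet-Off pair that represses mouse Ctcfl while doxycycline is present. It had been without doxycycline (2 µg/ml before) for 2 days and had received 10 µM retinoic acid for 4 days. The Ctcfl line with vehicle had the same removal of doxycycline and received ethanol. Wild-type P19 cells with retinoic acid had the same dose, and wild-type cells with vehicle received ethanol. For both wild-type groups the labels differ, since the growth description gives ordinary medium while the characteristics list 2 µg/ml doxycycline. The Ctcfl line is 1 clone, so Ctcfl, the vectors, the choice of clone and doxycycline cannot be told apart. No array was replicated, so each difference within a line or state has no replicate error.

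The Mir302 cluster (Mir302b, Mir302c, Mir302a, Mir302d and Mir367 in this order on one transcript) and the Mir290 cluster are among the main microRNA sources of mouse pluripotent cells. A microRNA guides Argonaute to messenger RNAs through its seed, bases 2 to 8 of the mature strand, and lowers their translation and stability. Most 3p strands of both clusters share a seed family known for promoting the transition from G1 to S phase and the pluripotent state, and retinoic acid drives P19 cells out of that state into neural and other lineages.

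The mature 3p strands are shown because the same or a related seed joins most of them, though not miR-367-3p, into 1 family. The sequences are RefSeq's on GRCm38.p6, 5′ to 3′, with bases 2 to 8 in capitals. The first 4 lines are the Mir302 cluster on chromosome 3, and the other lines are the Mir290 cluster on chromosome 7.
mmu-miR-302b-3p: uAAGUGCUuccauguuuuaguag
mmu-miR-302c-3p: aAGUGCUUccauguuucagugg
mmu-miR-302d-3p: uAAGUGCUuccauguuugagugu
mmu-miR-367-3p: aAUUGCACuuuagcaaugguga
mmu-miR-290a-3p: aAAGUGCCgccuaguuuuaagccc
mmu-miR-291a-3p: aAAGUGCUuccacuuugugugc
mmu-miR-294-3p: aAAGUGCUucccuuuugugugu
mmu-miR-295-3p: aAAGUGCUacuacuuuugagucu

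The seed AAGUGCU stood at bases 2 to 8 of miR-302b-3p and miR-302d-3p and of miR-291a-3p, miR-294-3p and miR-295-3p, from 5 genes. In miR-302c-3p as annotated the same letters start at base 1, so that its bases 2 to 8 are AGUGCUU. MiR-290a-3p has the related seed AAGUGCC. Outside the seed the clusters differ. Over the whole strand, seed included, miR-302d-3p was identical to miR-302b-3p at 20 of 23 positions, and miR-291a-3p at 14 of 22. MiR-367-3p belongs to another family, with the seed AUUGCAC, and matched miR-302b-3p at 5 of 22 positions. The 3p strand of Mir302a, mmu-miR-302a-3p, is named only. On the 5p side, Mir302b, Mir302c and Mir302d share the seed CUUUAAC, and Mir302a has CUUAAAC.

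The hairpin of Mir302c is shown as an example of how the 5p and 3p strands sit in a member's transcript. It lies at chr3:127545363-127545430 on the plus strand of GRCm38.p6, and its mature strands are in capitals.
Mir302c hairpin: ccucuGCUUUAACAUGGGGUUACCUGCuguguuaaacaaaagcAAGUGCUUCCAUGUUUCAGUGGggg

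The 5 hairpins of the Mir302 cluster span chr3:127545228-127545807, 580 bases, on the plus strand, with 61, 65, 59 and 43 bases between neighbours. They lie within the span of Larp7, a gene for a 7SK RNA-binding protein that is read from the opposite strand. The Mir290a hairpin lies at chr7:3218626-3218708 on the plus strand, before the annotated start of the lncRNA gene D7Ertd143e. The deposited files name no genome build, so these positions are those of the RefSeq table.

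The median signal of an array was log2 6.95 to 6.96, and a gene entered the tests where at least 1 array gave it log2 6 or more, which kept 18310 genes. Ctcfl had log2 signals of 9.56 with retinoic acid and 10.41 with vehicle in the Ctcfl line, against 7.13 and 7.86 in wild-type cells. Of 10 markers of embryonal carcinoma and pluripotent cells, none was below log2 6 on every array. Nor was any neural, endoderm or mesenchyme marker with a value, so this does not set cell types apart. The 10 had mean log2 signals of 8.51 in the Ctcfl line with retinoic acid and 10.43 with vehicle. In wild-type cells the means were 8.30 with retinoic acid and 10.04 with vehicle. Zfp42, a marker of the naive state, stayed between log2 6.12 and 6.46. Olfactory receptor genes, used as a guide to background, had medians between 4.69 and 4.79.

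Among the members, Mir302c had log2 signals of 4.01 in the Ctcfl line with retinoic acid and 10.48 with vehicle, and 4.05 in wild-type cells with retinoic acid and 10.53 with vehicle. Mir302a, the third hairpin of the cluster, had 2.98 and 9.42 in the Ctcfl line and 2.88 and 9.40 in wild-type cells, each with retinoic acid and then with vehicle. Both lines were high with vehicle and at background with retinoic acid, and the 2 lines lay nearly on top of each other in each state. As log2 differences, retinoic acid minus vehicle, Mir302c gave -6.47 in each line, and Mir302a gave -6.44 in the Ctcfl line and -6.52 in wild-type cells. On the linear scale Mir302c was 88.8-fold lower in the Ctcfl line and 88.9-fold lower in wild-type cells.

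Mir367, the last hairpin of the cluster, had log2 signals of 3.46 with retinoic acid and 9.45 with vehicle in the Ctcfl line, and 3.40 and 9.71 in wild-type cells. Mir302d had 4.85 and 10.20 in the Ctcfl line, and 4.59 and 10.36 in wild-type cells. The log2 differences were -5.99 in the Ctcfl line and -6.31 in wild-type cells for Mir367, and -5.35 and -5.78 for Mir302d. These 2 differences were slightly smaller in the Ctcfl line.

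Mir302b, the first hairpin of the cluster, had log2 signals of 2.87 with retinoic acid and 7.84 with vehicle in the Ctcfl line, and 3.22 and 7.09 in wild-type cells. Its log2 differences were -4.96 in the Ctcfl line and -3.87 in wild-type cells, smaller than those of its 4 neighbours. Signals of different probe sets depend on their probes, so the members' levels are not set against each other.

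Mir290a, the first hairpin of the other cluster, had log2 signals of 5.16 with retinoic acid and 9.01 with vehicle in the Ctcfl line, and 5.53 and 8.38 in wild-type cells. Its log2 differences were -3.85 in the Ctcfl line and -2.86 in wild-type cells. The other Mir290 cluster genes share 1 probe set, which reads Mir291a, Mir291b, Mir292, Mir293, Mir294, Mir295 and D7Ertd143e together and is therefore no member. That probe set had log2 signals of 6.76 with retinoic acid and 8.68 with vehicle in the Ctcfl line, and 6.36 and 8.01 in wild-type cells. It was 3.78-fold lower with retinoic acid in the Ctcfl line and 3.15-fold lower in wild-type cells.

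**Figure D1:**
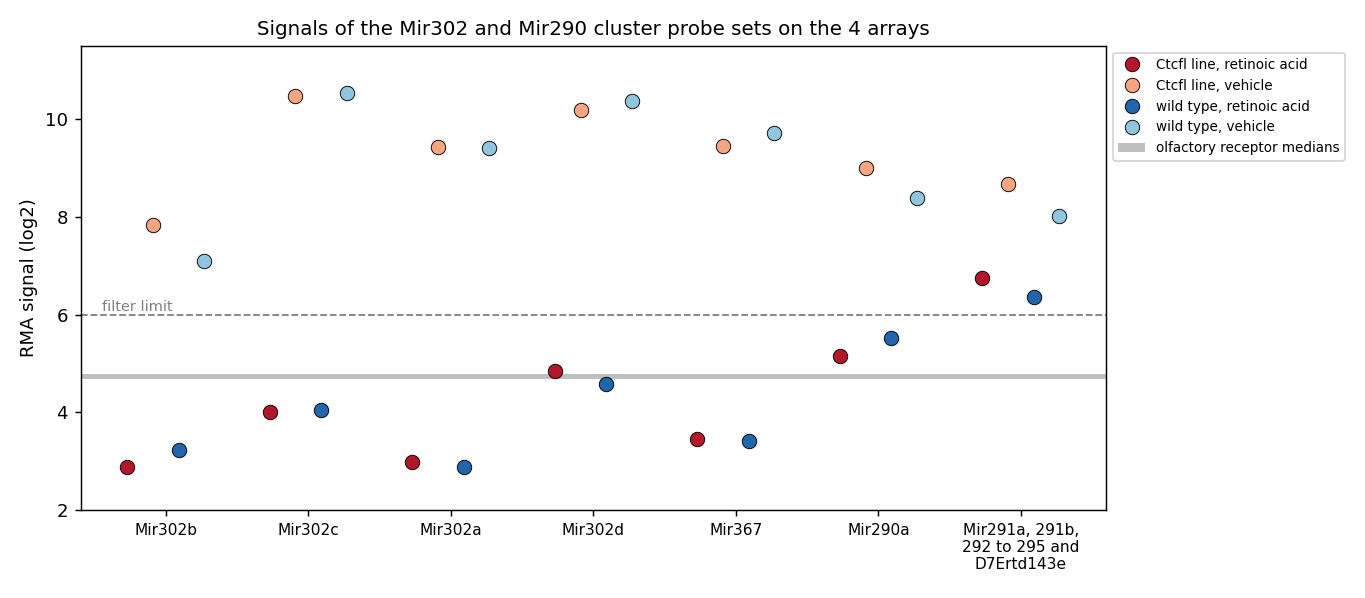
Log2 RMA signals (y axis) of the 6 members and of the probe set shared by 6 other Mir290 cluster genes and D7Ertd143e (x axis), 1 point per array; the dashed line is the filter limit of log2 6 and the grey band the olfactory receptor medians. All 6 members lie above log2 6 on both vehicle arrays and below it on both retinoic acid arrays.

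All 6 members were below log2 6 on both retinoic acid arrays, and 4 of them were at or below the olfactory receptor median on both. None was below log2 6 on a vehicle array. All 6 passed a 2-fold fall in each line and none a 2-fold gain, which the choice of members fixes. Of all genes tested, 1.5% passed a 2-fold fall in the Ctcfl line and 2.62% in wild-type cells, and 3.21% and 2.58% passed a 2-fold gain. The median log2 difference of the members was -5.67 in the Ctcfl line and -6.04 in wild-type cells, beside -0.05 and -0.04 over all genes. As a bulk measurement, fewer undifferentiated cells and less RNA per cell cannot be told apart here.

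The retinoic acid signals lie near background, so the folds above depend on the level taken as background. With signals below log2 6 set to 6, the falls become lower bounds. For Mir302c the fall was then at least 22.3-fold in the Ctcfl line and at least 23.0-fold in wild-type cells, and for Mir302d at least 18.3-fold and 20.6-fold. For Mir302b the bounds were 3.58-fold and 2.13-fold, and for Mir290a 8.03-fold and 5.22-fold, each in the Ctcfl line and then in wild-type cells. These bounds were chosen after seeing the data.

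Of 472 other microRNA genes with a probe set of their own, 268 passed the filter. Their median log2 difference with retinoic acid was 0.03 in each line, and the lowest single values were -1.80 in the Ctcfl line and -1.99 in wild-type cells. Of these 268, 15 rose and 6 fell at an adjusted p under 0.05 (limma, retinoic acid effect over both lines), beside 4.21% of all genes that rose and 2.44% that fell. Between 48.7% and 52.1% of microRNA genes with a value were below log2 6 on each array.

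**Figure D2:**
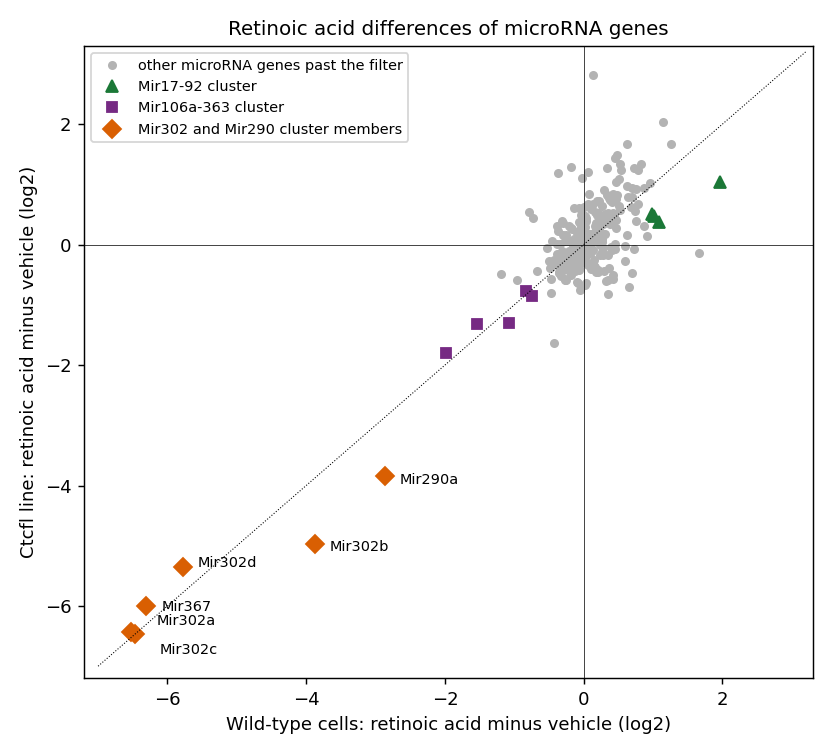
Log2 difference, retinoic acid minus vehicle, in the Ctcfl line (y axis) against that in wild-type cells (x axis) for the 274 microRNA genes past the filter, 1 point per gene; the dotted line marks equal differences. The 6 members lie between -2.86 and -6.52 and the other microRNA genes at -1.99 or above in both lines.

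The 5 other microRNA genes with the lowest mean retinoic acid difference were Mir19b-2, Mir18b, Mir363, Mir1949 and Mir135b. Mir19b-2, Mir18b and Mir363 belong to the Mir106a-363 cluster on the X chromosome, a relative of the Mir17-92 cluster on chromosome 14 that is best known for promoting proliferation. All 5 genes of the Mir106a-363 cluster that had a value fell. Mir19b-2 had log2 signals of 5.67 with retinoic acid and 7.47 with vehicle in the Ctcfl line, and 5.32 and 7.31 in wild-type cells, and its fitted effect was -1.89 ± 0.15 (SE, limma over 4 arrays, adjusted p = 0.0019). Mir18b fell by 1.43 on the log2 scale (adjusted p = 0.0050, limma), Mir363 by 1.19 (adjusted p = 0.0090), Mir92-2 by 0.80 (adjusted p = 0.028) and Mir20b by 0.80 (adjusted p = 0.030). The last 2 calls were lost when all probe sets entered the fit (adjusted p = 0.067 and 0.069).

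Mir363 and Mir92-2 carry the same seed as Mir367, shown here by their 3p strands on chromosome X with bases 2 to 8 in capitals (RefSeq, GRCm38.p6).
mmu-miR-363-3p: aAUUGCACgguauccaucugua
mmu-miR-92a-3p: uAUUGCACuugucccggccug

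Of the 7 genes with the seed AUUGCAC, Mir367 is the member. Mir363 had log2 signals of 7.57 with retinoic acid and 8.88 with vehicle in the Ctcfl line, and 7.10 and 8.18 in wild-type cells. Mir92b had an effect of -0.02 with retinoic acid (adjusted p = 0.95, limma), and Mir32 did not pass the filter. Mir25 and Mir92-1 had no probe set of their own.

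All 4 measured genes of the Mir17-92 cluster had effects above 0, and 1 passed the test. Mir19a rose, with log2 signals of 7.39 with retinoic acid and 6.35 with vehicle in the Ctcfl line, 7.54 and 5.58 in wild-type cells, and an effect of 1.5 ± 0.23 (SE, limma over 4 arrays, adjusted p = 0.017). Mir17, Mir18 and Mir20a had effects of 0.73, 0.75 and 0.74, and did not pass (adjusted p = 0.093, 0.064 and 0.060, limma). The highest mean differences among other microRNA genes were those of Mir3962, Mir19a, Mir9-2, Mir181b-1 and Mir380. Mir9-2, of a family known in neural progenitors, had a log2 signal of 6.20 in the Ctcfl line with retinoic acid and between 3.04 and 3.37 on the other 3 arrays, and did not pass (adjusted p = 0.17, limma).

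Of 12 let-7 genes, the family that opposes the pluripotent state and is blocked by Lin28, 5 passed the filter. Mirlet7d rose by 0.73 ± 0.15 on the log2 scale (SE, limma over 4 arrays, adjusted p = 0.038), and the other 4 did not pass. Of 11 microRNA genes of differentiated lineages past the filter, none rose or fell (limma, adjusted p under 0.05), 2 had an unadjusted p under 0.05, and their median was -0.03. What share of a microRNA gene's signal comes from its primary transcript, its hairpin or its mature strands is not given in the sources used here.

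The line contrast was not used to choose the members, and no member passed its test. With retinoic acid, the log2 difference, Ctcfl line minus wild type, was -0.34 for Mir302b and -0.37 for Mir290a, and the other 4 lay between -0.05 and 0.26, all from signals below log2 6. With vehicle, Mir302b had 0.75 (1.68-fold higher in the Ctcfl line) and Mir290a 0.62 (1.54-fold), while the other 4 lay between -0.26 and 0.02. Probe sets of 1 gene differed in these log2 differences with an SD of 0.23 with retinoic acid and 0.26 with vehicle over 874 genes. This SD is between probe sets on the same arrays, so it does not measure the spread between replicate arrays or cultures. None of the 6 reached 2-fold in either state, where 0.399% of genes were lower and 0.83% higher with retinoic acid, and 1.09% lower and 0.726% higher with vehicle. Past 1.5-fold, no member was higher with retinoic acid, and Mir302b and Mir290a were with vehicle, beside 3.41% and 3.8% of all genes.

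In the fit across all genes the line effect of the members lay between -0.10 ± 0.16 for Mir367 and 0.20 ± 0.26 for Mir302b (SE, limma over 4 arrays), and their adjusted p lay between 0.84 and 0.96. None passed an adjusted p under 0.05 and none had an unadjusted p under 0.05, where 0.0437% and 9.81% of all genes did (0.0273% rose and 0.0164% fell at the adjusted threshold). The median line difference of the members was 0.00 with retinoic acid and -0.01 with vehicle. For the shared probe set of the Mir290 cluster, fitted among all probe sets, the effect was 0.53 ± 0.16 (SE, limma, unadjusted p = 0.020, adjusted p = 0.41), higher in the Ctcfl line by 0.40 with retinoic acid and 0.66 with vehicle. Every member passed the filter through its vehicle signals alone. The members' line effect averages a vehicle difference with a retinoic acid difference from signals below log2 6, and takes their disagreement as error. For the members the fit therefore cannot decide whether the lines differ with vehicle alone. A p that misses the threshold with 1 residual degree of freedom does not show that the lines are alike.

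The difference between the lines in the retinoic acid response, Ctcfl line minus wild type, was -1.09 for Mir302b and -0.99 for Mir290a on the log2 scale. It was 0.00 for Mir302c, 0.09 for Mir302a, 0.32 for Mir367 and 0.43 for Mir302d. Mir302b was the 1 member at least 2-fold lower, beside 0.754% of all genes, and none was at least 2-fold higher, beside 1.9%. That call is lost with signals below log2 6 set to 6, where the value is -0.75 for Mir302b and -0.62 for Mir290a. These values are single differences of 4 arrays and have no test.

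Profiles over the 4 arrays were compared by root mean square distance of log2 values centred on their own mean. The members themselves were left out as candidates. Nearest to the mean profile of the members were Tdgf1 (0.85), Utf1 (1.02), Foxi3 (1.02), Pim2 (1.04) and Otx2 (1.07). Tdgf1, a Nodal co-receptor of pluripotent cells, had log2 signals of 6.76 with retinoic acid and 11.33 with vehicle in the Ctcfl line, and 6.09 and 9.78 in wild-type cells. Outside the members it was nearest to each Mir302 cluster member too, at 0.48 for Mir302b and 1.33 for Mir302c. The retinoic acid differences of Tdgf1 were smaller in size than those of Mir302c, at -4.57 in the Ctcfl line and -3.69 in wild-type cells. With vehicle, Tdgf1 was higher in the Ctcfl line by 1.55. For Mir290a the nearest were Foxi3 (0.31), Epha1 (0.34), Dnmt3b (0.35), Pdzd4 (0.36) and Pim2 (0.37). Dnmt3b, a de novo DNA methyltransferase, had log2 signals of 9.07 with retinoic acid and 11.94 with vehicle in the Ctcfl line, and 9.03 and 11.79 in wild-type cells. The likeness is a description over 4 arrays.

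Larp7, which overlaps the Mir302 cluster on the opposite strand, did not pass for retinoic acid. It had log2 signals of 10.79 with retinoic acid and 11.21 with vehicle in the Ctcfl line, and 10.72 and 11.04 in wild-type cells, with an effect of -0.37 ± 0.15 (SE, limma over 4 arrays, adjusted p = 0.20). Of 13 genes at and around both clusters, the calcium kinase gene Camk2d rose by 1.10 (adjusted p = 0.013, limma), none fell, and the lowest mean was -0.67 for Ank2, an ankyrin gene. Nlrp12, which overlaps the Mir290 cluster on the opposite strand, had -0.18 (adjusted p = 0.49, limma).

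Transcription factors of pluripotency that bind at the promoters of both clusters fell in part. Of 9, 3 fell and none rose. Nanog, a homeodomain factor, had log2 signals of 10.05 with retinoic acid and 11.63 with vehicle in the Ctcfl line, and 8.47 and 10.83 in wild-type cells, an effect of -1.97 ± 0.21 (SE, limma over 4 arrays, adjusted p = 0.0051). Pou5f1, the POU factor Oct4, had 8.14 and 10.03 in the Ctcfl line and 8.10 and 9.37 in wild-type cells, and fell by 1.58 (adjusted p = 0.0074, limma). Tcf7l1, a Wnt pathway repressor, fell by 0.78 (adjusted p = 0.033), and Sox2, the partner of Pou5f1, had -0.32 and did not pass (adjusted p = 0.27). The list's median was -0.38, beside -0.05 over all genes.

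The promoter windows of the transcripts at both clusters are shown because the factors named above are known to bind near them. Each is 300 bases on the plus strand, from 250 before to 50 after the annotated start (RefSeq, GRCm38.p6). The window of Gm51018, the lncRNA gene at the Mir302 cluster, is chr3:127544839-127545138, with the 1 match of a SOX core motif in capitals. The window of D7Ertd143e is chr7:3218534-3218833, with the Mir290a hairpin in capitals. That hairpin lies before the annotated start, so a transcript from this start would not hold it. Whether this window serves Mir290a was not tested.
Gm51018 promoter: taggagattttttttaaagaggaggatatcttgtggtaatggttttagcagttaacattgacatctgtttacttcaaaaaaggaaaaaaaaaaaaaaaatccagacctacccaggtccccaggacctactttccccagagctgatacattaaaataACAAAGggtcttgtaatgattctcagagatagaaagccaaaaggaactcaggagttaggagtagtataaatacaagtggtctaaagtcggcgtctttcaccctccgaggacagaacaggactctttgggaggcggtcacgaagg
D7Ertd143e promoter: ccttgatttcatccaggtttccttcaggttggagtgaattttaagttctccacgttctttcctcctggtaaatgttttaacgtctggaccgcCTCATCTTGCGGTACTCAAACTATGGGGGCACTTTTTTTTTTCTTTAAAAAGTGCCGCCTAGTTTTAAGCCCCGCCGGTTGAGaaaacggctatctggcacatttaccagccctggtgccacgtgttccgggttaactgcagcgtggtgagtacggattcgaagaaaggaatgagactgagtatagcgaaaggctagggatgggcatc

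The motifs searched, on both strands, were the octamer ATGCAAAT, known for POU factors, the SOX core CTTTGT and the retinoid half-site AGGTCA. The Gm51018 window held CTTTGT once, on the reverse strand from base 157, and neither of the others, so no matches overlapped. The D7Ertd143e window held none. Of 32851 promoter windows of this length, 1.74% held the octamer, 18.7% the SOX core and 16.3% the half-site. A missing match says only that these letters are not in this window.

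Of 15 enzymes and partners that make and use microRNAs, 1 rose and none fell with retinoic acid, with a median of 0.02. Ddx5, a helicase partner of Drosha, rose by 0.73 ± 0.15 (SE, limma over 4 arrays, adjusted p = 0.038). Drosha, which cuts primary transcripts, and Dicer1, which cuts hairpins, each had an effect of 0.02 (adjusted p = 0.96 and 0.95, limma). Dgcr8, the partner of Drosha, had no probe set of its own.

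In the Lin28 and let-7 axis, 1 of 9 genes fell and none rose. Mycn, a MYC family factor, fell by 1.07 (adjusted p = 0.036, limma). Lin28a, the RNA-binding protein that blocks let-7 processing, had log2 signals of 10.15 with retinoic acid and 11.57 with vehicle in the Ctcfl line, and 11.13 and 11.61 in wild-type cells. Its effect was -0.95 and did not pass (adjusted p = 0.068), and Hmga2, a let-7 target, had 1.02 and did not pass (adjusted p = 0.062, limma).

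Among 20 genes reported elsewhere as targets of the seed family, 5 rose and 1 fell, with a median of 0.49 beside -0.05 over all genes. Nr2f2, an orphan nuclear receptor, had log2 signals of 8.76 with retinoic acid and 6.77 with vehicle in the Ctcfl line, and 9.82 and 7.11 in wild-type cells, and rose by 2.36 ± 0.20 (SE, limma over 4 arrays, adjusted p = 0.0025). Dkk1, a Wnt antagonist, rose by 1.30 (adjusted p = 0.0084), the kinase gene Akt1 by 1.23 (adjusted p = 0.010), the GTPase gene Rhoc by 1.08 (adjusted p = 0.019) and Ei24 by 0.88 (adjusted p = 0.022). Cdkn1a, the cell cycle inhibitor p21, fell by 1.06 (adjusted p = 0.016, limma). Lefty1, a Nodal antagonist, had differences of 4.17 in the Ctcfl line and 0.70 in wild-type cells and did not pass (adjusted p = 0.0995, limma), and Lefty2 had 2.88 and 0.47. Whether these RNAs respond to the microRNAs was not tested.

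**Figure D3:**
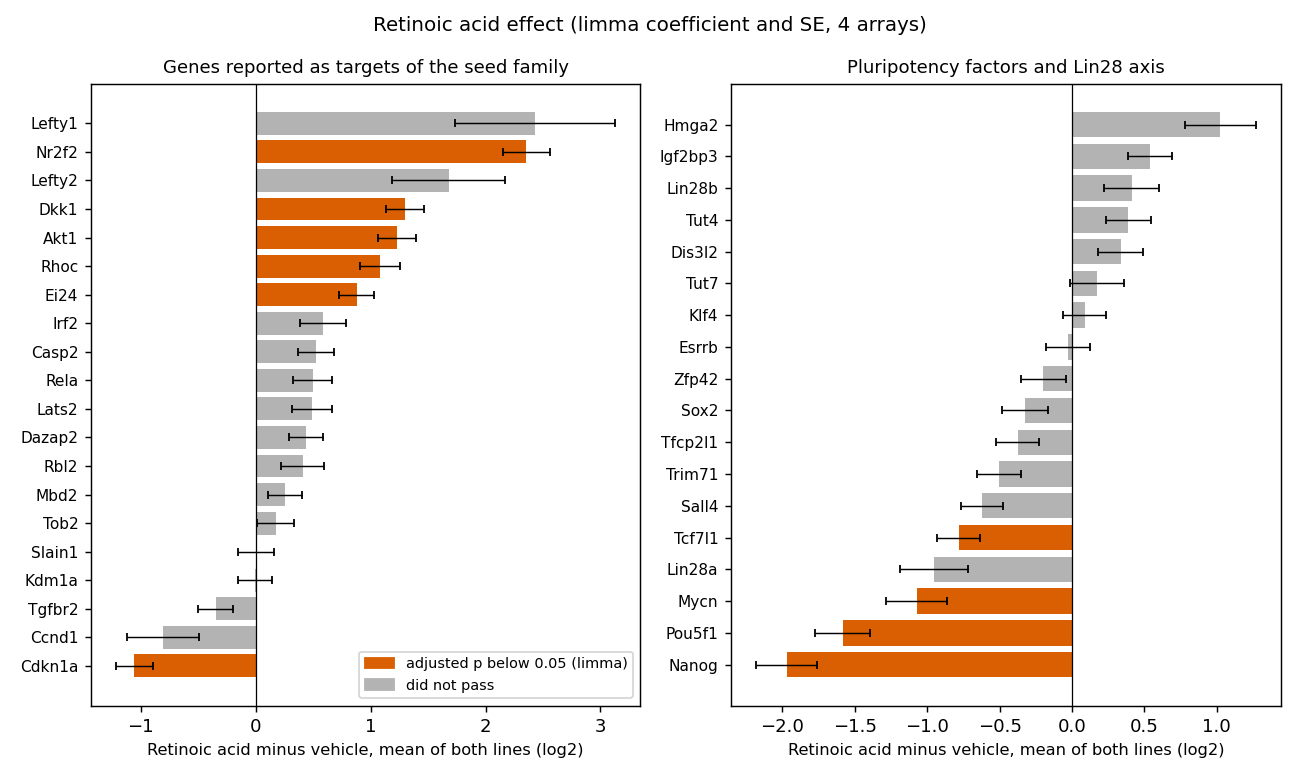
Fitted retinoic acid effect, log2 retinoic acid minus vehicle over both lines (x axis), for genes reported as targets of the seed family (left) and for promoter-bound pluripotency factors with the Lin28 axis (right), bars with SE from limma over 4 arrays; orange bars passed an adjusted p under 0.05. Of the targets 5 rose and 1 fell; of the right-hand genes 4 fell and none rose.

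In none of the lists of enzymes, Lin28 axis, promoter factors, targets and microRNA genes did a gene pass for the line effect. Of 81 genes, none rose or fell at an adjusted p under 0.05 (limma), beside 0.0437% of all genes. An unadjusted p under 0.05 was found for 15 of the 81 (limma), beside 9.81% of all genes. Over the same genes 8 rose and 10 fell with retinoic acid. Of all genes tested, 4.21% rose and 2.44% fell, which is also the background for the single lists and the markers. With all probe sets in the fit 3 rose and 6 fell: the calls of Ddx5, Ei24, Rhoc, Mycn, Tcf7l1, Mirlet7d, Mir19a, Mir20b and Mir92-2 were lost, at adjusted p between 0.057 (Mir19a) and 0.088 (Mycn).

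Markers of other cell types moved with retinoic acid beside the members. Of 10 embryonal carcinoma markers 7 fell, with a median of -1.78. Of 8 neural markers 4 rose, Pax6, Sox1, Nes and Dcx, with a list median of 0.69. The other 4 did not pass, with effects of -0.46 for Tubb3, -0.03 for Map2, 0.11 for Neurog2 and 0.14 for Neurog1 (limma). The neural mean log2 signals were 8.46 with retinoic acid and 7.67 with vehicle in the Ctcfl line, and 8.40 and 7.73 in wild-type cells. Of 6 endoderm markers Gata6 rose by 3.08 (adjusted p = 0.00061, limma), the other 5 did not pass, and the list median was 0.20. The endoderm means were 7.88 with retinoic acid and 7.40 with vehicle in the Ctcfl line, and 8.49 and 7.54 in wild-type cells. Without Gata6 they were 7.44 and 7.44 in the Ctcfl line, and 7.94 and 7.46 in wild-type cells. Of 7 mesenchyme markers Dcn and Lum rose and Thy1 fell, with a list median of 0.17 and list means of 7.85 with retinoic acid and 7.38 with vehicle in the Ctcfl line, and 8.43 and 7.72 in wild-type cells. Without Dcn the means were 7.69 and 7.62 in the Ctcfl line, and 8.06 and 8.01 in wild-type cells. The part of these cells in the members' signals was not tested.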

How the data were processed

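Total RNA was labelled with biotin and measured on 4 Affymetrix arrays, 1 per group. The deposited log2 signals are RMA values from Affymetrix Expression Console, per the labels, which means that the authors had corrected background, normalized between arrays and summarised probe sets. Transcriptome Analysis Console is also named, per the submitters' processing notes. Versions, the genome build and the filters are not given in the sources used here. Of 41345 probe sets, 23521 had exactly 1 gene symbol in GEO's platform annotation, 1814 had several and 16010 are unnamed here.

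Each gene was represented by the brightest, on average, of its probe sets with 1 symbol (22180 genes), and genes with a highest log2 signal below 6 were left out (18310 remained). Differences of single arrays have no test. Mean effects over both lines or both states were fitted with limma 3.58.1 in R 4.3.3 (lmFit and eBayes) with additive terms for retinoic acid and line. This leaves 1 residual degree of freedom per gene, with the interaction as error. Two-sided p-values were adjusted over the 18310 genes (Benjamini-Hochberg), and 0.05 was the threshold. Tested on simulated data, the fit found large changes, and more unchanged genes passed than the threshold allows, so single calls are less sure than their adjusted p. Tables were handled in Python 3.11.15 with pandas 2.3.3. The number of arrays limits the precision. The p-values rest on each gene's interaction and on a variance that eBayes shares over all genes (5.485 prior degrees of freedom). They hold no spread between replicate arrays or cultures.

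Named genes were all members, up to 6 genes per list with the largest retinoic acid difference, some fixed regulators, the 5 nearest profiles, neighbouring genes, microRNA genes sharing a seed, and the 5 highest and 5 lowest other microRNA genes. The other members of the Mir17-92 and Mir106a-363 clusters and Camk2d follow from these. The members and the 12 lists were chosen with earlier results of these data known. Alternatives were quantile normalization, centring on the microRNA median, other filters and fold thresholds, a mean of probe sets, a variance prior that follows mean expression, and all probe sets in the fit.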

Additional observations from a re-analysis of the deposited data

Results flagged for a closer look

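For 13 of the genes examined, which were those the naming rule gives, the difference between the lines, or the response to retinoic acid, ran in opposite directions in the 2 states or lines, each time beyond the SD between probe sets of a gene. With 1 array per group the difference between the 2 values was not tested. The share of all genes that meet this rule was not computed, so the count of 13 has no background beside it. Mir302b had a log2 difference, Ctcfl line minus wild type, of -0.34 with retinoic acid and 0.75 with vehicle. Mir290a had -0.37 with retinoic acid and 0.62 with vehicle. For both members the retinoic acid values come from signals below log2 6, and with those signals set to 6 the retinoic acid difference is 0.

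Hmga2 had -0.53 with retinoic acid and 0.47 with vehicle, Ctcfl line minus wild type. Lefty1 had 2.70 with retinoic acid and -0.78 with vehicle. Pax6 had -0.83 with retinoic acid and 0.30 with vehicle, and Mir133a-2 had -0.25 with retinoic acid and 0.27 with vehicle. Otx2 had 0.92 with retinoic acid and -0.46 with vehicle. Among other microRNA genes, Mir1949 had -0.47 with retinoic acid and 0.73 with vehicle, Mir17 had -0.28 and 0.43, Mir135b had 0.31 and -0.40, and Mir3962 had 0.32 and -0.58. Mirlet7e differed by 1.20 between retinoic acid and vehicle in the Ctcfl line and by -0.37 in wild-type cells, and Cacng7, near the Mir290 cluster, by 0.63 and -0.56.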

How the results depend on the processing

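The members' counts at least 2-fold lower with retinoic acid did not move by over 1.5 times under any alternative run. The members were chosen in part because they fell, so this unmoved count is no support. Their 0 calls for the line effect did not move either, and their adjusted p for it lay between 0.80 and 0.99 (limma). As in the main fit, a retinoic acid difference from signals near background enters, so the unmoved 0 does not show that the lines are alike. At a 1.5-fold threshold, 2 members were higher in the Ctcfl line with vehicle, beside 3.8% of all genes. At 2-fold the count was 0, beside 0.726% of all genes. With signals below log2 6 set to 6, an alternative chosen after seeing the data, the median retinoic acid difference of the members was -3.44 in the Ctcfl line and -3.56 in wild-type cells. With all probe sets in the fit, 3 genes of the lists rose and 6 fell, against 8 and 10, and Ddx5, Ei24, Mir19a, Mir20b, Mir92-2, Mirlet7d, Mycn, Rhoc and Tcf7l1 no longer passed; more tests enter that adjustment. Hmga2, Lin28a, Mir20a and Sall4 passed under 1 or more other settings. No called value turned its direction. No paired analysis was possible because each group has 1 array. Signals near background limit the members' folds with retinoic acid.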
